A study of Drosophila melanogaster with 12 samples.

Results

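The genes described here encode the regulated thin filament of Drosophila muscle: troponins, tropomyosins and muscle actins. They were chosen by symbol, as all probe sets annotated with 1 of 9 named genes and with no other gene. Of the 9 genes, 5 were measured in this way, by 6 of the 18769 probe sets tested, out of 11982 named genes. The measured genes were up, TpnC73F (with 2 probe sets), TpnC41C, Tm2 and Act87E. The other 4, wupA, TpnC47D, Tm1 and Act57B, had no probe set of their own name in the annotation used here and were not analysed.

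In muscle, actin polymerises into the thin filament, tropomyosin lies along it, and the troponin complex holds tropomyosin in a position that blocks or permits contact with myosin. Troponin T anchors the complex on tropomyosin, troponin I is its inhibitory subunit and troponin C binds calcium. The fly gene up (upheld) encodes troponin T and wupA encodes troponin I. TpnC73F, TpnC41C and TpnC47D encode troponin C isoforms, Tm1 and Tm2 encode tropomyosins, and Act57B and Act87E encode muscle actins. In the embryo, genes of these families are switched on as myoblasts differentiate, though not every isoform need be embryonic. Founder cells, which carry the identity of each muscle, fuse with fusion-competent myoblasts.

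Total RNA was measured on 12 single-colour arrays, 3 for each of 4 groups. All embryos were at late stage 11 to early stage 12 and carried twi-gal4 and UAS-GFP, so that GFP marked Twist-expressing mesoderm, and the GFP-positive cells were sorted. Wild type set 1 and wild type set 2 carried these insertions alone. The Slou gain-of-function group also carried UAS-S59, which drives Slou (slouch, a homeodomain muscle identity factor), and the Msh gain-of-function group also carried UAS-msh, which drives Msh (gene symbol Dr, another homeodomain factor). The labels do not say whether arrays of a group came from separate collections, so the p-values rest on array-to-array spread that may be technical only. In sorted bulk RNA, fewer cells of a type and less RNA per cell cannot be told apart.

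The deposited log2 values lay on 2 different scales: array medians were 2.59 to 2.72 in wild type set 1 and Slou, and 3.85 to 3.91 in wild type set 2 and Msh. Each gain of function was therefore compared with the wild-type set of its own scale (Slou with set 1, Msh with set 2), and levels across all 4 groups were compared as percentile ranks among the 18769 probe sets of an array. The slou probe set rose by 5.48 (SE 0.11, limma adjusted p = 0.00152) in Slou and fell by 0.57 (limma adjusted p = 0.0458) in Msh. Dr fell by 2.80 in Slou (limma adjusted p = 0.00569). In the arrays labelled Msh, Dr had a difference of 0.32 (SE 0.14, limma adjusted p = 0.254), so their label is not borne out by a call of this probe set. Its 3 Msh values (9.34 to 9.38) did lie above those of wild type set 2 (8.77 to 9.17). Groups did not overlap for 32.8% of all probe sets in that comparison. Of 8 mesoderm markers 4 were measured (twi, sna, htl and zfh1), and all were above the array median in every group. Most markers of other tissues were above it too. Of 7 neural genes 2 were below it in each group. Of 7 epidermal and tracheal genes 1 was below it in wild type set 1 and 0 in the other groups. This check therefore does not show how pure the sorted mesoderm was. No array stood apart in its correlation with the others.

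The RNA of up, which encodes troponin T, had about the same place in both wild-type sets and moved in opposite directions in the 2 gains of function. Its deposited log2 values (probe set 1630261_a_at) were 3.77, 3.55 and 3.62 in wild type set 1 and 4.88, 4.78 and 5.12 in Slou. In wild type set 2 they were 5.63, 5.64 and 5.64, and in the arrays labelled Msh 4.82, 4.46 and 4.86. All 3 Slou values lay above those of wild type set 1, and all 3 Msh values lay below those of wild type set 2. Gene up rose by 1.28 on the log2 scale in Slou (SE 0.14, 2.43-fold, limma adjusted p = 0.0236). In the arrays labelled Msh it fell by 0.92 (SE 0.13, 1.90-fold, limma adjusted p = 0.0288). The signal of up was low in 1 group of each comparison, with mean percentile ranks of 61.4 in wild type set 1 and 56.8 in Msh. No detection call was made for any probe set.

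TpnC73F, a troponin C, also moved in opposite directions in the 2 comparisons, by similar amounts. Its brighter probe set (1631217_a_at) had values of 6.25, 6.13 and 6.26 in wild type set 1 and 7.42, 7.47 and 7.36 in Slou. Values were 9.65, 9.68 and 9.67 in wild type set 2 and 8.42, 8.29 and 8.37 in the arrays labelled Msh. The groups did not overlap in either comparison. TpnC73F rose by 1.21 in Slou (SE 0.10, 2.31-fold, limma adjusted p = 0.0146) and fell by 1.31 in Msh (SE 0.07, 2.48-fold, limma adjusted p = 0.00618).

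The other TpnC73F probe set (1632439_at) was dim and could not resolve a change of that size. It ranged from 0.41 to 2.85 in wild type set 1 and from 2.04 to 2.95 in Slou, with a difference of 1.02 (95% interval -0.76 to 2.80). It ranged from 1.49 to 4.94 in wild type set 2 and from 3.59 to 4.31 in Msh, with a difference of 0.25 (95% interval -2.46 to 2.97). The groups overlapped in both comparisons, and 1 wild type set 2 array lay far below the other 2 of its group.

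TpnC41C, another troponin C, was likewise measured near the middle of the array distribution. Its values (probe set 1625752_at) were 0.77, 2.52 and 3.12 in wild type set 1 and 3.43, 2.75 and -0.16 in Slou. They were 4.27, 4.95 and 4.93 in wild type set 2 and 3.93, 3.43 and 3.21 in the arrays labelled Msh. The Slou arrays spanned more than all of wild type set 1, while the Msh arrays lay below wild type set 2. The Slou difference was -0.13 (95% interval -3.18 to 2.92, limma adjusted p = 0.978), and the Msh difference was -1.20 (95% interval -1.94 to -0.45, limma adjusted p = 0.0846).

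Tm2, a tropomyosin, had the largest change of the measured genes in the arrays labelled Msh. Its values (probe set 1641325_s_at) were 7.58, 7.74 and 7.68 in wild type set 2 and 5.88, 5.53 and 5.87 in Msh. They were 5.11, 4.82 and 4.57 in wild type set 1 and 5.46, 5.10 and 5.27 in Slou. The Msh arrays lay far below their wild type, whereas the lowest Slou array and the highest wild type set 1 array overlapped. Tm2 fell by 1.91 in Msh (SE 0.13, 3.75-fold, limma adjusted p = 0.00733), and in Slou it had a difference of 0.45 (95% interval -0.05 to 0.94, limma adjusted p = 0.382).

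Act87E, a muscle actin, was among the brightest probe sets of every array and had the smallest difference of the 5 genes in Msh. Its values (probe set 1636348_s_at) were 11.05, 11.06 and 11.00 in wild type set 1 and 11.31, 11.30 and 11.37 in Slou. They were 12.61, 12.64 and 12.66 in wild type set 2 and 12.65, 12.69 and 12.69 in Msh. The Slou arrays lay above wild type set 1 by 1.23-fold, and the Msh arrays overlapped wild type set 2. The Slou difference was 0.29 (SE 0.09, limma adjusted p = 0.247) and the Msh difference was 0.04 (95% interval -0.13 to 0.21, limma adjusted p = 0.785). With the variance allowed to follow intensity, the Slou difference of Act87E passed (limma adjusted p = 3.77e-07), as it did without probe sets of a mean under 4 over the arrays fitted, called dim here (0.00683), and in a fit of 12 arrays (0.0233). Those were 3 of 9 alternative settings, and in the other 6 it did not pass. Without any 1 array its limma adjusted p was 0.398 to 0.463. Against wild type set 2, on values quantile-normalized over the 12 arrays, the Slou difference was 0.09 (SE 0.07, limma adjusted p = 0.393). Probe sets whose name ends in _s_at, as those of Act87E and Tm2 do, can match transcripts of more than 1 gene, so signal from related actins or tropomyosins cannot be told apart from theirs.

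**Figure D1:**
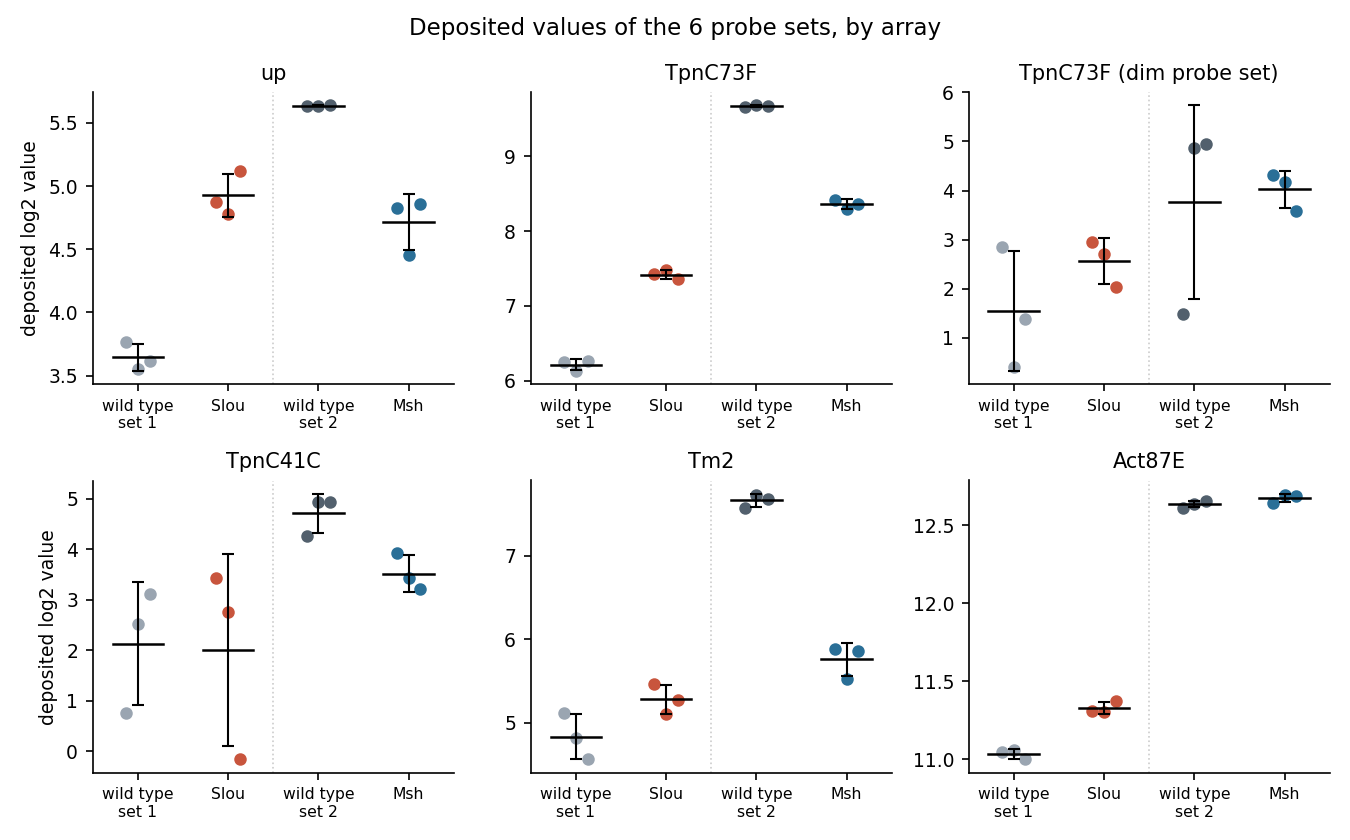
Deposited log2 values of the 6 probe sets on each of the 12 arrays. Points are arrays, horizontal lines are group means and error bars are SD (n = 3); the dotted line separates the 2 parts with different scaling, and each panel has its own axis. The 3 Slou points of up and of the brighter TpnC73F probe set lie above wild type set 1, and the Msh points of up, TpnC73F and Tm2 lie below wild type set 2.

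Counted over the 5 genes, with the brightest probe set for each, 2 rose in Slou, 0 fell and 3 did not pass. In that comparison 2.31% of all probe sets passed, 1.24% as higher and 1.08% as lower. In the arrays labelled Msh 0 rose, 3 fell and 2 did not pass, where 6.81% of all probe sets passed, 2.86% as higher and 3.95% as lower. The median difference of the 5 genes was 0.45 in Slou and -1.20 in Msh, beside medians of -0.02 and 0.02 over all named genes. Each of these 2 medians is the value of a gene that did not pass, Tm2 in Slou and TpnC41C in Msh. On values quantile-normalized over the 12 arrays the medians were 0.43 and -1.01. Against the other wild-type set they turned to -0.40 in Slou and 0.17 in Msh, with 2 and 3 of the 5 differences positive. Groups that did not overlap were common, at 25.3% of all probe sets in Slou and 32.8% in Msh. The Slou calls depended on having all 6 arrays: without any 1 of them the rise of up was 1.18 to 1.35 with limma adjusted p from 0.0811 to 0.0973, and that of TpnC73F was 1.17 to 1.24 with adjusted p from 0.0624 to 0.0744. In Msh, up lost its call without any 1 array (limma adjusted p from 0.0734 to 0.102). TpnC73F lost it without any 1 of the 3 Msh arrays and Tm2 without Msh replicate A or C, with adjusted p over the 6 exclusions from 0.0259 to 0.0552 and from 0.0318 to 0.0542.

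The effect of Slou and the effect in the arrays labelled Msh were compared directly as a difference of differences in 1 fit of the 12 arrays. For up the effects differed by 2.20 (SE 0.19, limma adjusted p = 0.00018), for TpnC73F by 2.52 (SE 0.11, limma adjusted p = 7.85e-06) and for Tm2 by 2.35 (SE 0.23, limma adjusted p = 0.000396). Thus 3 of the 5 genes passed, all with the Slou effect higher, where 9.22% of all probe sets passed, 4.76% in that direction and 4.46% in the other. The same 3 passed without any 1 of the 12 arrays. A difference of effects also takes in any difference between the 2 wild-type sets, which is given below. Act87E had a difference of 0.25 (95% interval 0.05 to 0.46, limma adjusted p = 0.141), which passed with an intensity trend (0.000315) and without dim probe sets (0.00512). It did not pass in the other 4 of 6 alternative settings. For TpnC41C it was 1.07 and for the dim TpnC73F probe set 0.76, with 95% intervals of -1.82 to 3.96 and -2.21 to 3.74.

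**Figure D2:**
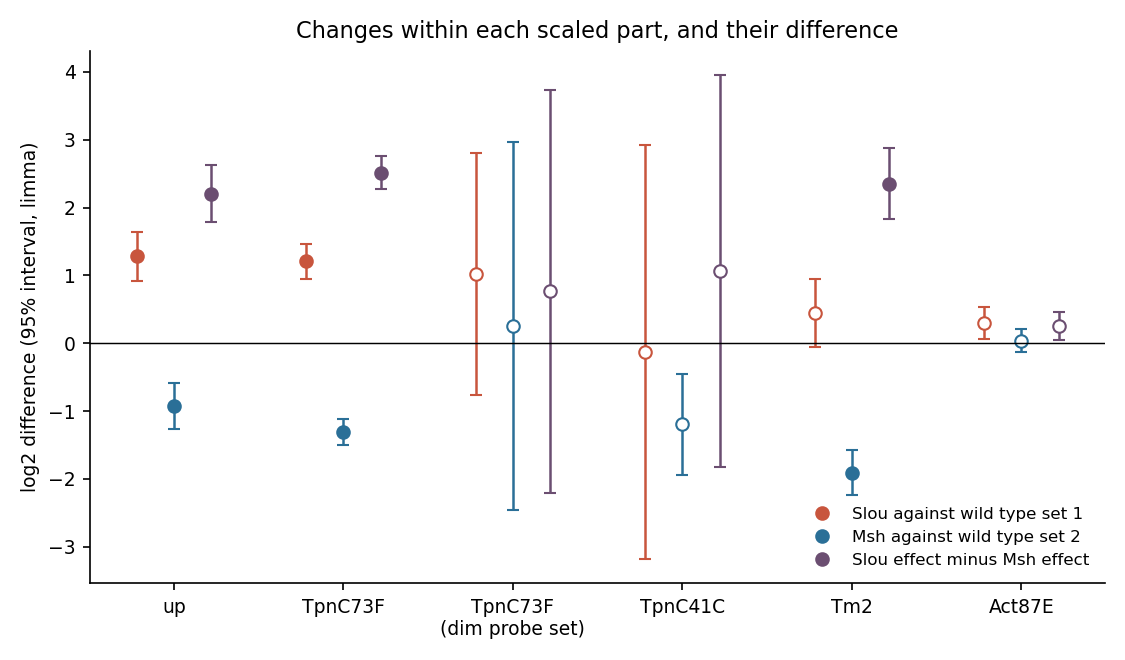
Log2 differences of the 6 probe sets for Slou against wild type set 1, Msh against wild type set 2, and the Slou effect minus the Msh effect. Error bars are 95% intervals from limma, and filled points passed an adjusted p of 0.05; up, TpnC73F and Tm2 passed in the difference of effects, at 2.20, 2.52 and 2.35.

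The rank of each gene in the 2 wild-type sets does not depend on the scaling of the values. Ranks were counted from 1, the brightest of 18769 probe sets, and hold each probe set's own affinity, so they are compared between groups and not between genes. Gene up ranked 7090 to 7359 in wild type set 1 and 7093 to 7109 in wild type set 2, at mean percentiles of 61.4 ± 0.731 and 62.2 ± 0.0478 (SD, n = 3 each). The 2 sets overlapped for up. Act87E ranked 126 to 132 in wild type set 1 and 116 to 121 in wild type set 2, both within the top percentile, with set 2 the higher on every array.

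TpnC73F and Tm2 differed between the wild-type sets. TpnC73F ranked 3774 to 3974 in wild type set 1 and 1473 to 1486 in wild type set 2, at percentiles of 79.5 ± 0.602 and 92.1 ± 0.0385 (SD, n = 3 each). Tm2 ranked 5469 to 6146 in wild type set 1 and 4476 to 4672 in wild type set 2, at percentiles of 69.0 ± 1.81 and 75.7 ± 0.534 (SD, n = 3 each). TpnC41C stood at the 43.9 ± 14.3 percentile in wild type set 1 and at 57.0 ± 2.45 in set 2 (SD, n = 3 each), and its arrays overlapped. Over all probe sets, percentile ranks did not overlap between the wild-type sets for 34.8%.

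On values quantile-normalized over the 12 arrays, which gives every array the same distribution, TpnC73F was higher in wild type set 2 by 1.59 (SE 0.07, limma adjusted p = 9.2e-06) and Tm2 by 0.90 (SE 0.16, limma adjusted p = 0.00507). Gene up had a difference of 0.12 (95% interval -0.15 to 0.39) and Act87E one of 0.14 (95% interval -0.01 to 0.29). That of Act87E passed with an intensity trend (limma adjusted p = 0.0024) and without dim probe sets (limma adjusted p = 0.013). So 2 of the 5 genes passed as higher in wild type set 2, where 17.2% of all probe sets passed, 8.32% as higher and 8.91% as lower. Wild-type set and scaled part cannot be told apart in these arrays. Markers of other cell types also differed between the sets on these values. In wild type set 2, 5 of 7 neural genes were higher and 0 lower, with summed unlogged values of 1891 to 2029 in set 1 and 2495 to 2859 in set 2. Of 7 epidermal and tracheal genes 4 were higher and 1 lower, with sums of 572 to 600.2 and 920.05 to 1051. Of 5 visceral mesoderm genes 0 were higher and 4 lower, with sums of 450.8 to 539.9 and 229.5 to 244.1. The hemocyte and fat body list had 1 of 11 higher and 3 lower, the cardiac list 1 of 8 and 3, the fusion-competent myoblast list 2 of 5 and 0, and the founder cell list 2 of 4 and 2. Their part in the differences of TpnC73F and Tm2 was not tested. In a fit of the 6 wild-type arrays alone Tm2 missed the threshold (limma adjusted p = 0.0515).

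**Figure D3:**
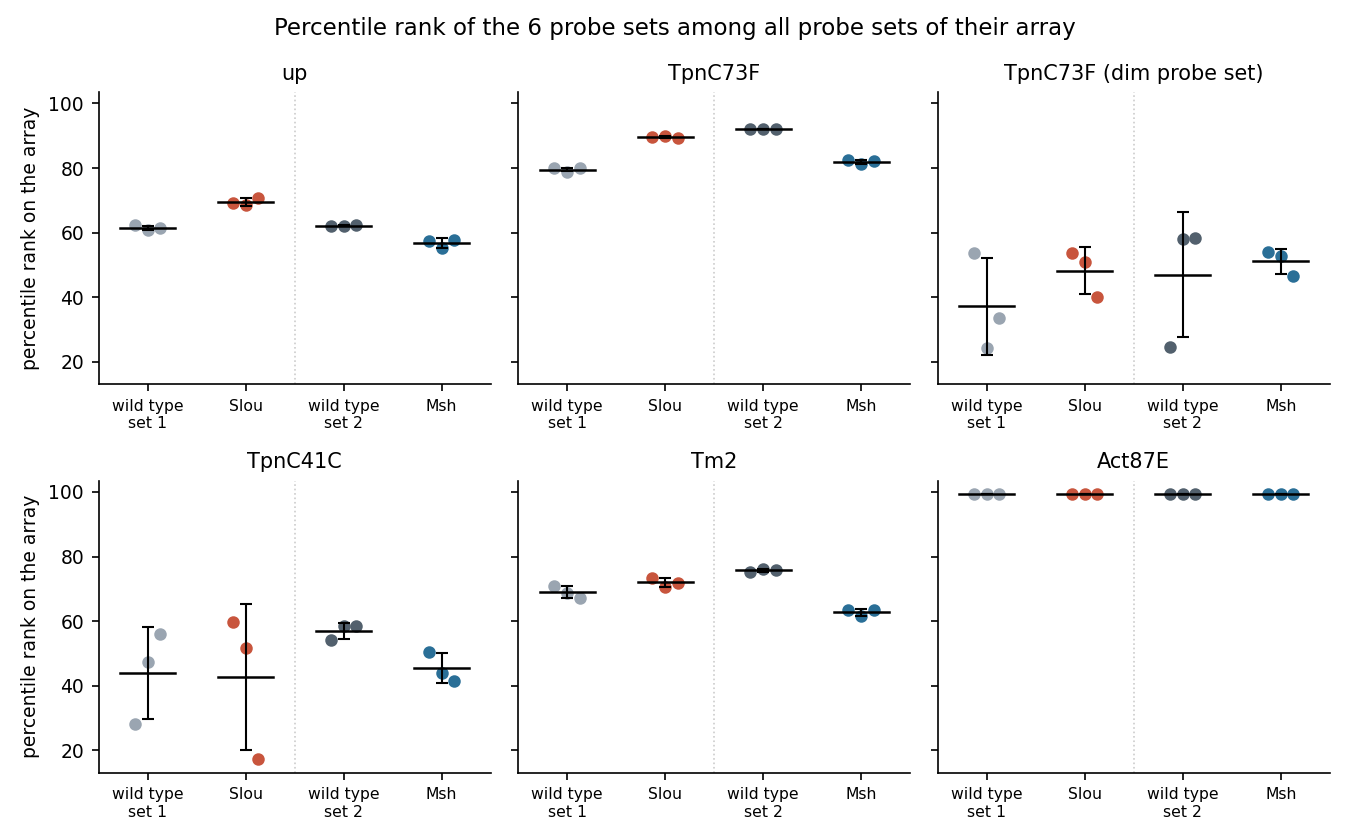
Percentile rank of each of the 6 probe sets among the 18769 probe sets of its array (100 is the brightest). Points are arrays, horizontal lines are group means and error bars are SD (n = 3); the dotted line separates the differently scaled parts. Gene up stands at about the same rank in both wild-type sets, whereas the brighter TpnC73F probe set stands at a mean of 79.5 in set 1 and 92.1 in set 2.

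The order of the 4 groups by percentile rank therefore differed from gene to gene. For up it was Slou at 69.4, wild type set 2 at 62.2, wild type set 1 at 61.4 and Msh at 56.8, and only the wild-type neighbours overlapped. For TpnC73F it was wild type set 2 at 92.1, Slou at 89.6, Msh at 81.9 and wild type set 1 at 79.5, with no overlap between neighbours. For Tm2 it was wild type set 2 at 75.7, Slou at 72.0, wild type set 1 at 69.0 and Msh at 62.8, and Slou overlapped wild type set 1. For Act87E all 4 groups lay at a mean percentile between 99.3 and 99.4. The TpnC41C and dim TpnC73F probe sets gave no order, since their groups overlapped in all pairs except TpnC41C in Msh and wild type set 2.

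Because of this, the direction of TpnC73F turned with the wild-type set used, and that of up did not. On quantile-normalized values up was higher in Slou than wild type set 1 by 1.31 (SE 0.12, limma adjusted p = 0.000169) and than wild type set 2 by 1.19 (SE 0.12, limma adjusted p = 0.000174). In the arrays labelled Msh up was lower than either set, by -0.77 against set 2 (SE 0.12, limma adjusted p = 0.00432) and by -0.65 against set 1 (SE 0.12, limma adjusted p = 0.00411). These comparisons across the scaled parts called 19.9% of all probe sets for Slou against set 2 and 22.5% for Msh against set 1. Within the parts the same fits called 8.81% for Slou and 8.83% for Msh.

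TpnC73F was higher in Slou than wild type set 1 by 1.19 (SE 0.07), but against set 2 its difference was -0.40 (SE 0.07, limma adjusted p = 0.00446). In Msh its difference was -1.32 (SE 0.07) against set 2 and 0.27 (SE 0.07, limma adjusted p = 0.0271) against set 1. Tm2 was lower in Msh than either set, by -1.90 (SE 0.16, limma adjusted p = 0.00022) against set 2 and by -1.01 (SE 0.16, limma adjusted p = 0.00188) against set 1. In Slou the Tm2 difference was 0.43 against set 1 and -0.47 against set 2 (SE 0.16 each, limma adjusted p = 0.15 and 0.0704). Set directly against the arrays labelled Msh, Slou was higher for up by 1.96 (SE 0.12, limma adjusted p = 9.45e-06), for Tm2 by 1.43 (SE 0.16, limma adjusted p = 0.000241) and for TpnC73F by 0.92 (SE 0.07, limma adjusted p = 3.63e-05). That comparison also crosses the scaled parts and called 24% of all probe sets.

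**Figure D4:**
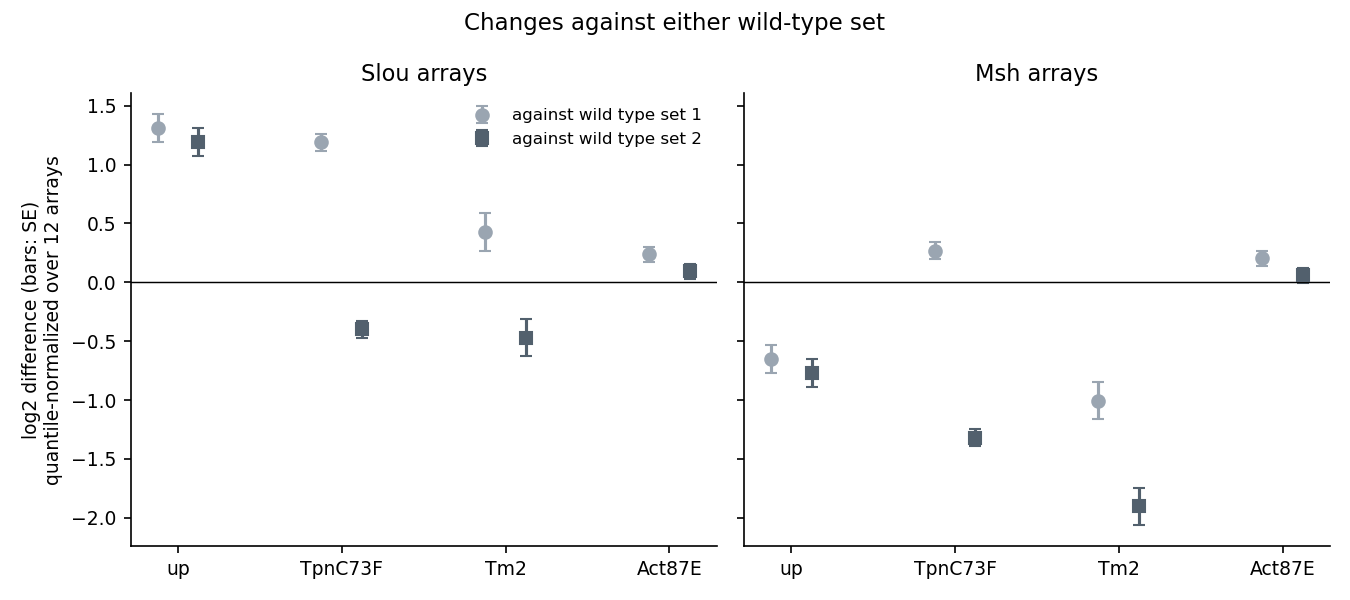
Log2 differences of up, TpnC73F (brighter probe set), Tm2 and Act87E in the Slou arrays (left) and the Msh arrays (right) against each wild-type set, on values quantile-normalized over the 12 arrays. Error bars are SE from limma. For up both points lie on the same side of 0 in each panel, whereas TpnC73F lies at 1.19 and -0.40 in Slou and at 0.27 and -1.32 in Msh.

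Of 6 other genes of the same families 3 were measured, and none of the 3 passed in any comparison by limma. Act79B, an actin of adult muscles, stood at the 58.6 percentile in wild type set 1 and 61.8 in set 2, with differences of 0.25 in Slou and -0.14 in Msh. Act88F, the flight muscle actin, stood at 56.6 and 38.6, and TpnC4, a flight muscle troponin C, at 48.5 and 56.1. At an unadjusted p under 0.05 none of the 3 was called in Slou or Msh, Act79B was called in the difference of effects, and Act79B and Act88F were called between the wild-type sets.

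Of 10 genes whose products act on actin filaments or their ends, 8 were measured. In Slou 0 rose and 1 fell, and in Msh 1 rose and 1 fell, with medians of 0.17 and -0.08. Over all probe sets 2.31% passed in Slou and 6.81% in Msh. The gene that fell in Slou was DAAM, a formin that nucleates and elongates actin filaments, by 0.97 (SE 0.11, limma adjusted p = 0.0256). It rose in Msh by 0.45 (SE 0.08, limma adjusted p = 0.0427), opposite to up, TpnC73F and Tm2, and kept these signs against the other wild-type set (-0.87 and 0.38). The gene that fell in Msh was flr, an actin-severing cofactor, by 0.52 (SE 0.09, limma adjusted p = 0.0409), and its difference against set 1 was -0.24 (limma adjusted p = 0.161). Tropomodulin (tmod), which caps the pointed end, had differences of 0.03 in Slou and -0.22 in Msh, and neither passed.

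Among thick filament, titin and Z-disc genes, 14 of 16 were measured. In Slou 3 rose and 0 fell (median 0.67), and in Msh 1 rose and 5 fell (median -0.66). The shares of all probe sets that passed were 2.31% and 6.81%. Between the wild-type sets 7 were higher and 1 lower in set 2 (median 1.23), where 17.2% of all probe sets passed. Against the other wild-type set on quantile-normalized values, the medians turned to -0.43 in Slou and 0.35 in Msh. Mlc2, the myosin regulatory light chain, had the turn of TpnC73F: it was higher in wild type set 2 than in set 1 by 2.25 (SE 0.10, limma adjusted p = 8.31e-06). Mlc1, the other light chain, remained lower in Msh against set 1, by -0.49 (SE 0.11, limma adjusted p = 0.0107), as Tm2 did. Mlp60A, a muscle LIM protein, was lower in Msh against both sets, by -1.52 and -0.69 (SE 0.09 each, limma adjusted p = 4.49e-05 and 0.000691). Zasp52 of the same list went the other way. It was higher in Msh by 0.88 against set 2 and 1.09 against set 1 (limma adjusted p = 0.000854 and 0.000118). In Slou it was lower, with differences of -0.41 against set 1 and -0.63 against set 2 (limma adjusted p = 0.0306 and 0.00186).

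Of 8 muscle differentiation factors 5 were measured, without Mef2. In Slou nau, the fly MyoD relative, alone fell, by 1.63 (SE 0.14, limma adjusted p = 0.0151). In Msh nau also fell, by 0.43 (SE 0.08, limma adjusted p = 0.0477), and twi, the mesodermal bHLH factor, rose by 0.91 (SE 0.15, limma adjusted p = 0.0392). Against set 1 on quantile-normalized values, twi had a difference of 0.02 in Msh (SE 0.13, limma adjusted p = 0.952). The median of these 5 was -0.06 in Slou and 0.17 in Msh. Of all probe sets 2.31% passed in Slou and 6.81% in Msh.

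The genes whose percentile ranks followed the mean of the 5 genes most closely over the 12 arrays were SP1029, CG14285, Hexim, CG30491, CG4511 and EloB, with Pearson r of 0.919 down to 0.885 among 6624 candidates. The arrays share their groups and scaling, so this is a description only. TpnC41C varied most between arrays and had much weight in that mean. Without it, as chosen after its values were seen, the closest gene was Mlc1 (r = 0.989), followed by GstD1, E23, mdy, unc-45, a myosin chaperone, and Pef (r = 0.978 to 0.955). The mean percentile of the other 4 genes was then 77.3 in wild type set 1, 82.6 in Slou, 82.3 in wild type set 2 and 75.2 in Msh.

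Markers of founder cells and of other cell types moved in the same arrays. The counts below stand beside 2.31% of all probe sets passing in Slou and 6.81% in Msh. In Slou 2 of 5 measured genes of fusion-competent myoblasts rose and 0 fell, and their summed unlogged values were 2600.3 to 2719 in wild type set 1 and 3361 to 3684 in Slou. Of 11 hemocyte and fat body genes 1 rose and 5 fell in Slou, with sums of 3167 to 3263 and 2493 to 2648. Of 7 neural genes 2 fell, with sums of 1003 to 1079 and 550.3 to 621.7, and of 8 cardiac genes 4 fell, with sums of 497.2 to 504.6 and 389.6 to 410.5. Of 5 visceral mesoderm genes 0 rose and 1 fell in Slou, with sums of 233.4 to 280.6 and 149.5 to 158.5. In the arrays labelled Msh 5 of 7 epidermal and tracheal genes rose, with sums of 1761 to 2019 in wild type set 2 and 2877 to 3025 in Msh, and 6 of 11 hemocyte and fat body genes fell, with sums of 9729 to 10288 and 6806 to 7127. Of 4 founder cell genes 1 rose in Slou and 2 rose in Msh, and 0 fell in either. Against set 2 on quantile-normalized values, rols (0.77) and pyd (0.58) passed as higher in Msh. The founder genes kirre (0.31) and rst (0.08) did not (limma adjusted p = 0.0638 and 0.606). In Slou kirre had a difference of -0.24 against set 1 (limma adjusted p = 0.145). Between 0 and 2 genes of each of these lists lay below the array median (Alk and, in Msh, jeb of the visceral mesoderm list, H15 of the cardiac list, brp and nSyb of the neural list, NimC1 and Hml of the hemocyte list, and btl of the epidermal and tracheal list in wild type set 1). On quantile-normalized values, the fusion-competent myoblast median in Slou was 0.60 against set 1 and 0.02 against set 2. That of visceral mesoderm turned from -0.49 to 1.23. The hemocyte and fat body, neural and cardiac medians in Slou stayed negative against set 2 (-1.32, -1.61 and -0.56). In Msh against set 1, the epidermal and tracheal median was 1.66, the hemocyte and fat body median -0.80 and the founder cell median 0.42. The part of these lists in the thin filament results was not tested.

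Differences between 3′ and 5′ control probe sets, which are used as measures of RNA integrity, also varied between groups. The difference between 3′ and 5′ control probe sets of Act5C, the cytoplasmic actin, was 1.44 ± 0.0394 in wild type set 2 and 2.23 ± 0.0954 in Msh (log2, SD, n = 3 each), against 1.44 ± 0.0198 in wild type set 1 and 1.47 ± 0.0179 in Slou. For eIF-4a it was 1.52 ± 0.0975 in wild type set 2 and 1.74 ± 0.0703 in Msh, and 1.65 ± 0.0367 in wild type set 1 and 1.62 ± 0.0280 in Slou. For the control named ACTIN it was 1.19 ± 0.153 in wild type set 2 and 1.57 ± 0.0795 in Msh, and it was lower in Slou (0.552 ± 0.0436) than in wild type set 1 (0.838 ± 0.121), with no overlap in either pair. The level of the ACTIN control also rose in Slou, by 0.76 at the 3′ end and 1.05 at the 5′ end. Which actin genes it detects is not given, so its 3′ to 5′ difference cannot be read as integrity alone. For a dim pair of GAPDH controls it was 1.21 ± 0.648 in wild type set 2 and 0.745 ± 0.648 in Msh, and 0.840 ± 0.631 in wild type set 1 and 1.23 ± 0.251 in Slou, with overlap in both pairs. A brighter GAPDH pair stood at 7.52 to 7.58 (3′) and 4.46 to 4.57 (5′) in wild type set 1. In Slou it stood at 8.64 to 8.78 and 4.91 to 5.18. Its 3′ to 5′ difference was thus larger on every Slou array. Values in wild type set 2 were 9.02 to 9.11 and 6.06 to 6.54. Those in Msh were 8.65 to 8.79 and 5.75 to 6.06, and the differences of these 2 groups overlapped. Where the probes of the 6 probe sets lie along their transcripts is not given in the sources used here, and the part of these differences in the Slou and Msh results was not tested.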

How the data were processed

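The deposited values are on a log2 scale, 1 per probe set and array. They were made with the R package affy, per the submitters' processing notes; its version, background correction, scaling and summary are not given in the sources used here, and the log base was read from the values. Of 18952 probe sets, 183 controls were left out. Of the 18769 tested, 13647 carry 1 gene, 402 several and 4720 none, and 13544 were given current symbols through gene IDs. The annotation names no build, so no coordinates are given.

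Tests used limma 3.58.1 in R 4.3.3 with Benjamini-Hochberg adjustment at 0.05 over all probe sets tested: the gains of function, each with its own wild-type set, in fits of 6 arrays, the difference of effects and the wild-type comparison in fits of 12. The fits were also run on simulated data with independent noise. That run cannot show the effect of technical-only spread or of wild-type sets lying in different scaled parts. Genes and lists, the comparisons and the 6 genes of closest rank profile were chosen with earlier results of these data known. List members named for a change passed in some comparison, except tmod and the family genes, which were named after their values were seen. Markers named as measured in the mesoderm list, or as below the array median, were named whether or not they passed. Deviations of arrays with the same replicate letter correlated by -0.0143 to 0.0304, so the letters were not used as a block. Precision is limited by 3 arrays a group: the median SD was 1.20 for the dimmer probe sets (up to percentile 50) of wild type set 1 and 0.0504 above percentile 90. A mean of at least 4 over the 12 arrays was reached by 4 of the 6 probe sets.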

Additional observations from a re-analysis of the deposited data

Results flagged for a closer look

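The Slou effect and the Msh effect differed for 3 of the genes, by the test of the difference itself in the fit of 12 arrays. The differences were 2.20 for up, 2.52 for TpnC73F (brighter probe set) and 2.35 for Tm2 on the log2 scale, with the limma adjusted p-values given above. They hold the difference between the wild-type sets as well as that between Slou and Msh. On quantile-normalized values, wild type set 2 minus set 1 was 0.12 for up, 1.59 for TpnC73F and 0.90 for Tm2. Slou minus Msh was 1.96, 0.92 and 1.43.

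The control probe sets named ACTIN, which the comparisons above left out, were higher on all 3 Slou arrays than on all 3 arrays of wild type set 1. The log2 difference was 0.76 for the 3′ probe set, 1.05 for the 5′ probe set, and 0.89 and 1.08 for both middle probe sets. The Act5C control probe sets went the other way in Slou, by -0.30 at the 3′ end and -0.33 at the 5′ end. Which actin genes the ACTIN probe sets detect is not given in the sources used here, and these differences were not tested.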

How the results depend on the processing

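Among all probe sets, the 434 calls in Slou became 2380 with an intensity trend, 2135 without dim probe sets (mean under 4 over the arrays fitted), 1591 in a fit of 12 arrays, 3742 against wild type set 2, 2629 against both sets and 0 to 49 without 1 array (lowest without wild type set 1 replicate C). The 1278 in Msh became 3621 with a trend, 3586 without dim probe sets, 4220 against wild type set 1, 3101 against both sets and 16 to 602 without 1 array (lowest without Msh replicate A). With the replicate letter as a block both fell to 0 (2105 and 3479 at an unadjusted p under 0.05 by limma), as did the 2 and 3 member calls, though same-letter arrays showed no pairing. Without 1 array the member calls were 0 in Slou and 0 to 2 in Msh. The 1730 calls in the difference of effects became 2944 with a trend, 3087 without dim probe sets, 1107 with the replicate block and 1036 to 1412 without 1 array, and the 3 member calls stayed in each of these. The 3234 calls between wild-type sets became 9873 as deposited and 1149 in 6 arrays, with 5 and 1 member calls in place of 2.

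Signs turned in Slou against set 2 for TpnC73F (-0.40) and Tm2 (-0.47), against both sets for Tm2 (-0.021), and in Msh against set 1 for TpnC73F (0.27) and TpnC41C (0.17); these alternatives use the other wild-type arrays. Without 1 array, TpnC41C ran from -0.84 to 0.96 in Slou and the dim TpnC73F probe set from -0.88 to 0.84 in Msh. Percentile shifts between wild-type sets became 30.9 for TpnC73F, 16.6 for Tm2 and 0.131 for Act87E when ranked among bright probe sets, and 17.0, 8.69 and 0.0723 among 1 probe set per gene, since fewer probe sets were ranked. Array number and low signal limit TpnC41C and the dim TpnC73F probe set. Gene up was low too in wild type set 1, at 3.55 to 3.77. In Msh its mean percentile was 56.8, beside 57.0 for TpnC41C in wild type set 2. Background was not measured for any probe set. Calls of genes outside the 9 were not refitted without single arrays.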
